A study of Mus musculus with 36 samples.

Results

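Cytoplasmic RNA of naive mouse embryonic stem (ES) cells was compared with cytoplasmic RNA of mouse embryonic fibroblasts (MEFs), with no use of the sorted particles made from the same cells. The comparison took 4 of the 36 samples of the series, 2 libraries of naive ES cytoplasm and 2 of control MEF cytoplasm, chosen by their sample titles. By the study's methods, the ES cells were of the v6.5 line, from a C57BL/6 and 129S4Sv/Jae cross, and were kept in the naive state without serum, in N2B27 medium with PD0325901, CHIR99021 and LIF. The study's reporting summary instead lists its mouse ES cells as KH2, a male line, and its MEFs as from female and male embryos. MEFs came from E13.5 embryos and were grown in fetal bovine serum at low oxygen. The study derived MEFs from CD1 wild type mice and from a reprogrammable strain. It calls the MEFs profiled beside the reprogramming cells uninduced, but which strain gave the control MEFs is not stated outright in the sources used here. The reprogrammable strain carries an inducible cassette of Oct4, Klf4, Sox2 and Myc at Col1a1, the M2-rtTA transactivator at Rosa26 and an EGFP reporter driven by Pou5f1 elements. Both cell types carried a lentiviral GFP-LSM14A, which the study used to sort P-bodies. Cell type, genetic background, medium, serum and, by the reporting summary, the sex of the cells therefore differed together between the groups and cannot be told apart. The oxygen level of the ES cultures is not given in the sources used here. The cytoplasm was a detergent lysate cleared of nuclei and concentrated by centrifugation before any sorting, so it is a fraction of the cell rather than its whole RNA.

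Naive ES cells correspond to the inner cell mass of the blastocyst before implantation. They keep their state through a network of transcription factors around Oct4, Sox2 and Nanog, which LIF and inhibition of the MEK and GSK3 kinases hold in place. Fibroblasts are mesenchymal cells that secrete collagen-rich matrix, pull on it through actin stress fibres and lack the tight epithelial contacts that ES colonies have. The comparison thus sets the start cell of reprogramming beside the state that reprogramming aims at.

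The naive ES libraries held 12772173 and 12334513 assigned reads and the MEF libraries 31185799 and 30132600, so a low level was measured less precisely in naive ES cells. A library had reads for 16886 to 17537 genes. The 10 most abundant genes took 4.05% and 4.28% of the reads in naive ES cytoplasm and 8.44% and 7.99% in MEFs. Replicates correlated across 9979 genes at a Spearman rho of 0.969 in naive ES cells and 0.996 in MEFs, and the SD of their log2 difference was 0.504 and 0.202. Both pairs differed by more than counting noise, so no libraries were merged. Levels below are counts-per-million (CPM) of assigned reads on TMM-scaled library sizes. Fold changes are log2 values of naive ES over MEF with their standard error (SE), and a gene was called at an edgeR adjusted p under 0.05.

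Of 16871 genes tested, 12119 were called, which is 71.8% of them. Those higher in naive ES cells numbered 6066 (36.0%) and those higher in MEFs 6053 (35.9%). A fold change shown to exceed 2-fold was found for 7630 genes (45.2%), 3765 higher in naive ES cells (22.3%) and 3865 higher in MEFs (22.9%). The median log2 fold change over all tested genes was -0.01. These shares are the background for each list below, since a gene taken from the whole table was called more often than not.

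**Figure D1:**
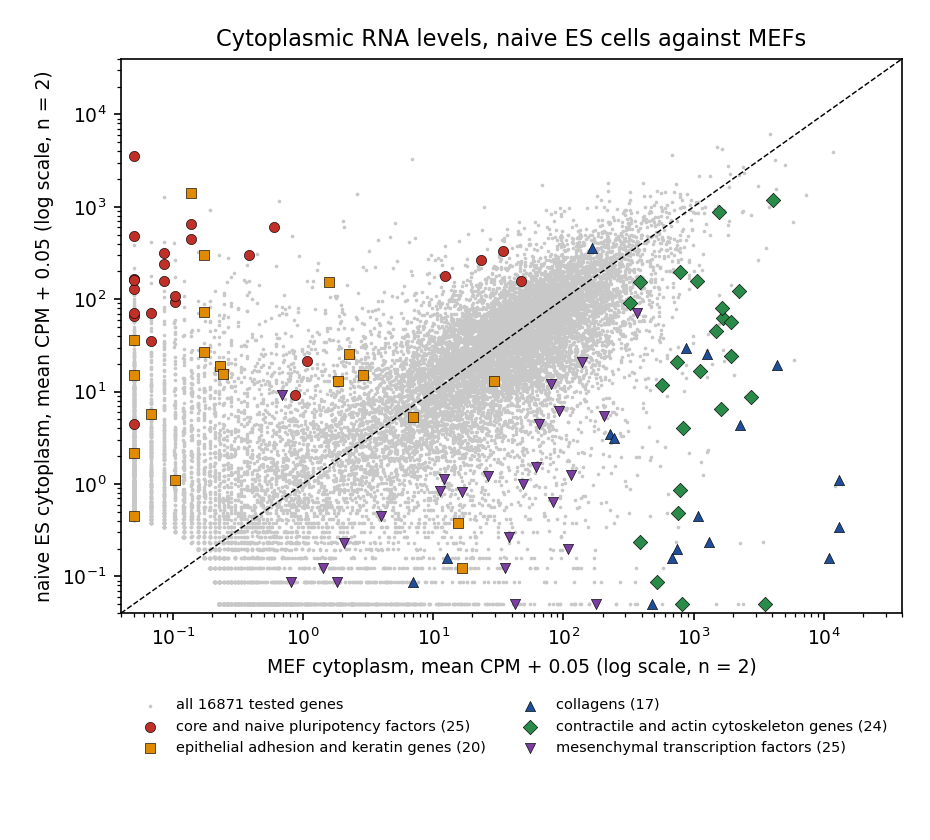
Mean cytoplasmic level in MEFs (horizontal) against naive ES cells (vertical), both as CPM + 0.05 on log scales with n = 2; grey points are all 16871 tested genes, the dashed line marks equal levels and coloured symbols are members of 5 gene lists. The 25 pluripotency factors lie above the line, while 16 of 17 collagens and all 24 contractile genes lie below it.

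Pluripotency factors were far more abundant in naive ES cytoplasm. All 25 members of the list of core and naive factors were tested and all 25 were called higher there, each beyond 2-fold, beside a background of 36.0% for that direction. Their median log2 fold change was 11.54, or 10.62 when the 8 members without a read in MEFs were set at the limit that 3 reads over the group allow.

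Pou5f1, which encodes Oct4 and lies at chr17:35506018-35510772 in mm10, had 576 and 734 CPM in naive ES cells and 0.0705 and 0.108 CPM in MEFs. The groups were far apart, with a log2 fold change of 12.75 ± 0.29 (adjusted p = 2.3e-05). Nanog, a homeodomain factor of the same network, had 587 and 637 CPM against 0.776 and 0.324 CPM, a log2 fold change of 10.10 ± 0.32. Sox2, the partner of Oct4 on DNA, had 78.8 and 140 CPM in naive ES cells but only 3 reads in the 2 MEF libraries together. Its ratio was 2057, with an exact 95% counting interval of 704 to 9973. Zfp42, known as Rex1 and used as a marker of the naive state, had 418 and 476 CPM against 0.176 and 0 CPM (log2 fold change 12.20 ± 0.46).

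Dppa5a, an RNA-binding KH-domain protein of pluripotent cells, had 2949 and 4082 CPM in naive ES cells and no read in either MEF library. It was at least 65910-fold higher, counting the MEF group at 3 reads. Esrrb, an orphan nuclear receptor that acts downstream of GSK3 inhibition, was also without a MEF read and reached 136 and 125 CPM. Tdgf1, the Nodal co-receptor Cripto, had no MEF read either, yet its naive replicates lay far apart at 759 and 215 CPM. Klf4 had the smallest fold change of the list. It was present in both cell types, at 186 and 126 CPM against 49.7 and 44.2 CPM (log2 fold change 1.74 ± 0.21, adjusted p = 0.0011).

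The 4 factors of the inducible cassette were also read in the MEFs, whether or not these carry it. Pou5f1 and Sox2 were at or below 0.108 CPM in both MEF libraries. Myc was higher in MEFs, at 89.3 and 78.4 CPM against 0.221 and 0.940 CPM in naive ES cells (log2 fold change -7.15 ± 0.40). Reads of the cassette and of the 4 genes themselves cannot be told apart where the cassette is on.

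Promoters of the list were read from RefSeq (GRCm38.p6, the build mm10), as the 250 bases before and 50 after each start. The octamer core TTTGCAT, to which Oct4 binds, was sought on both strands. Entries were found for 16 of the 25 genes. The core was present in 4 of their 20 promoters, which are those of Zfp42 and Sox2 and both of Nanog, and in 4.63% of all 32851 promoters. It was at least as frequent in 2 lists given below. They are the AP-1 and immediate early factors, with 4 of 16 promoters, and the trophoblast markers, with 2 of 10. Matches of Zfp42, Sox2 and Nanog are shown because their genes carry the result, as 100 bases around the match, in capitals, on the strand of the gene. A match is a run of letters, and binding was not measured.
Zfp42, chr8:43307142-43307241, minus strand: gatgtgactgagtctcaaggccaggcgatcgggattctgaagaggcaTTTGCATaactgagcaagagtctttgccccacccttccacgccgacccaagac
Sox2, chr3:34649849-34649948, plus strand: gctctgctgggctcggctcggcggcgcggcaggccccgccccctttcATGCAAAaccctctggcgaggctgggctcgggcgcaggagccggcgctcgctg
Nanog, chr6:122707367-122707466, plus strand: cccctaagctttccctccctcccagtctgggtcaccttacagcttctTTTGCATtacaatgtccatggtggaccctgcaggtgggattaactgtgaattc
Sox2 holds the reverse complement, and the matches begin at positions -185, -99 and -75 relative to the start.

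Some metabolic genes were as far apart. Tdh, threonine dehydrogenase, which feeds mouse ES cells with glycine and acetyl-CoA from threonine, had 401 and 427 CPM in naive ES cells and 2 reads in MEFs. Its ratio was 11635, with a counting interval of 3221 to 96074. Gldc, of the glycine cleavage system, had 120 and 197 CPM against 0.423 and 0.252 CPM (log2 fold change 8.85 ± 0.41). Slc2a3, the glucose transporter GLUT3, had 3793 and 2831 CPM against 6.45 and 7.12 CPM (8.93 ± 0.24). Several glycolytic enzymes went the other way. Ldha, lactate dehydrogenase A, had 1262 and 1049 CPM in naive ES cells and 3911 and 3976 CPM in MEFs (-1.77 ± 0.14), and Slc16a3, a lactate exporter, fell by 3.16 ± 0.31 on the log2 scale in naive ES cells relative to MEFs. Over the 28 genes of glycolysis and one-carbon metabolism, 14 were called higher in naive ES cells and 7 higher in MEFs, 21 in all, near the 71.8% called among all tested genes, and Gapdh was not called.

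**Figure D2:**
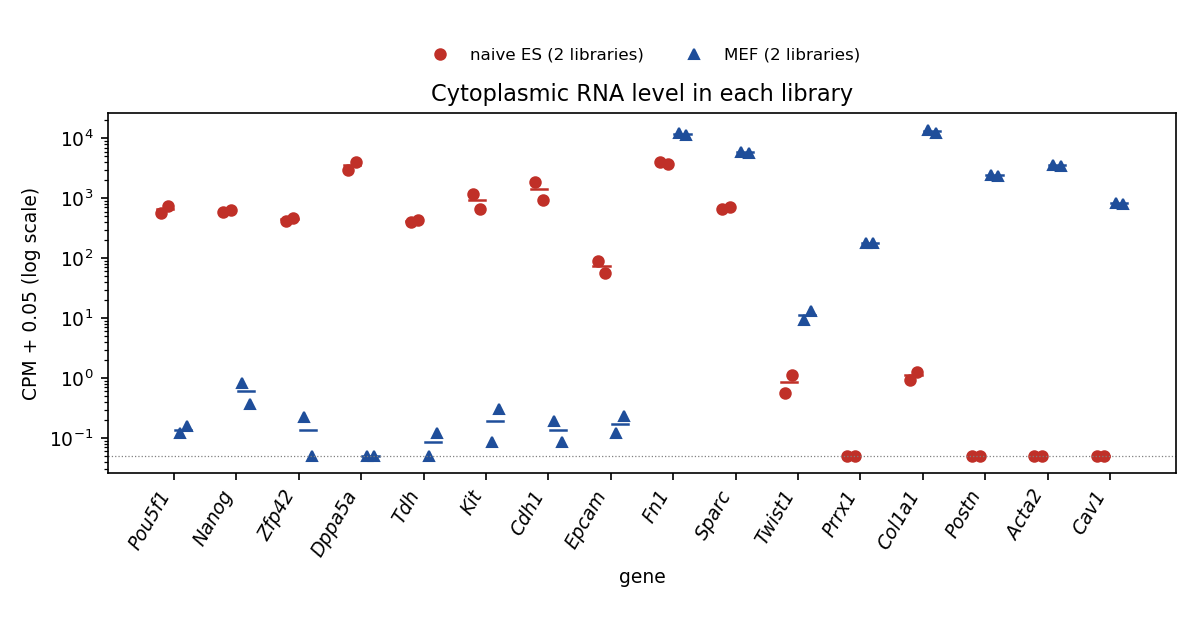
Level of 16 genes in each library as CPM + 0.05 on a log scale, with naive ES libraries as red circles, MEF libraries as blue triangles and a short bar at each mean of 2; the dotted line is the position of a level of 0. Among the 16 genes, Fn1 and Sparc are the pair with substantial levels in both cell types.

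Matrix RNA was far more abundant in MEF cytoplasm. Of 17 collagen genes, 16 were called higher in MEFs, each beyond 2-fold, and the list had a median log2 fold change of -9.04. Its members summed to 53484 and 48393 CPM in MEFs and to 386 and 514 CPM in naive ES cells. All 30 genes for collagen processing and other matrix proteins were called higher in MEFs, each beyond 2-fold, with a median of -5.92. The background for calls higher in MEFs was 35.9%.

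Col1a1 (chr11:94936224-94953042), a chain of the type I collagen of skin and bone, had 13861 and 12271 CPM in MEFs and 0.885 and 1.23 CPM in naive ES cells. Its log2 fold change was -13.58 ± 0.24, and Col1a2, the other chain of the trimer, was at -15.42 ± 0.33. Col3a1 had only 3 reads in naive ES cells against 619587 in MEFs. Postn, the matricellular protein periostin, had 2457 and 2367 CPM in MEFs and no read in naive ES cells, so it was at least 22033-fold lower there. Lox, the enzyme that cross-links collagen, was at least 19912-fold lower and likewise had no naive read.

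Not all matrix RNA was absent from ES cells. Fn1, fibronectin, had 3991 and 3757 CPM in naive ES cells beside 12280 and 11321 CPM in MEFs, a log2 fold change of only -1.61 ± 0.12 (adjusted p = 0.00021). Sparc, a collagen-binding glycoprotein, had 661 and 718 CPM beside 5952 and 5688 CPM (-3.08 ± 0.12). The basement membrane chains Col4a1 and Col4a2 stood at 25.5 to 33.3 CPM in naive ES cells. Col18a1, another basement membrane collagen and the source of endostatin, was the exception, with 296 and 428 CPM in naive ES cells against 171 and 158 CPM in MEFs (1.13 ± 0.19).

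Transcription factors of mesenchyme followed the matrix genes. Of 25 tested, 24 were called higher in MEFs, each beyond 2-fold, and the median log2 fold change was -4.43. Prrx1, a homeobox gene of limb and connective tissue mesenchyme, had 176 and 180 CPM in MEFs and no read in naive ES cells, so it was at least 1626-fold lower there. Osr1 was at least 389-fold lower, with 41.0 and 44.2 CPM in MEFs. Twist1, which drives mesenchymal fate in the embryo, was less abundant, at 9.24 and 13.2 CPM against 0.516 and 1.08 CPM (-3.79 ± 0.42). Zeb2 and Snai2, repressors of epithelial genes, had log2 fold changes of -9.48 ± 0.27 and -6.57 ± 0.18, while Zeb1 kept 14.1 and 27.8 CPM in naive ES cells (-2.72 ± 0.32). Osr2 was the exception in the list, with 5.90 and 12.3 CPM in naive ES cells and 0.952 and 0.324 CPM in MEFs.

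The contractile machinery showed the same one-sided pattern. All 24 contractile and actin cytoskeleton genes were called higher in MEFs, 22 of them beyond 2-fold, with a median of -5.39. Acta2, smooth muscle actin and a mark of myofibroblasts, had 3574 and 3462 CPM in MEFs and no read in naive ES cells. It was at least 32133-fold lower there. Tagln, an actin-bundling protein, had 765 and 818 CPM against 1.03 and 0.578 CPM (-9.93 ± 0.24). Vim, the intermediate filament of mesenchymal cells, had 1974 and 1884 CPM against 27.2 and 21.3 CPM (-6.31 ± 0.18). Lmna, the A-type lamin of stiff nuclei, had 1537 and 1457 CPM against 57.9 and 32.0 CPM (-5.06 ± 0.32). Actn4, a non-muscle actinin, differed least and was at 936 and 810 CPM in naive ES cells against 1638 and 1512 CPM in MEFs (-0.85 ± 0.13).

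Targets of YAP, TGF-beta and serum, which report tension and growth factor input, were mostly higher in MEFs, with 15 of 17 called in that direction and a median of -4.49. Ankrd1, a YAP target, had 129 and 130 CPM in MEFs and 2 reads in naive ES cells. Ccn2, a matricellular YAP and TGF-beta target, had 1623 and 1535 CPM against 40.1 and 67.5 CPM (-4.88 ± 0.29). Ptgs2, the prostaglandin synthase COX-2, had 1189 and 1190 CPM against 0.295 and 2.1 CPM (-9.94 ± 0.57). Ier2, an immediate early gene, was called the other way (1.65 ± 0.18). Yap1 itself differed less, at 39.9 and 44.3 CPM against 70.5 and 81.5 CPM (-0.85 ± 0.13).

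Among 14 AP-1 and immediate early factors, 11 were called higher in MEFs and 1 higher in naive ES cells. Over all tested genes, 35.9% were called higher in MEFs. Of the 14 factors, 3 had no naive read, so for them the read minimum fixed the direction. Fosl1 had 22.8 and 19.3 CPM in MEFs and no naive read, which made it at least 192-fold lower in naive ES cells. Fosl2 and Egr1 had log2 fold changes of -8.24 ± 0.24 and -7.48 ± 0.29. Atf3, a stress-responsive factor, was the member higher in naive ES cells, at 24.8 and 15.2 CPM against 5.22 and 7.15 CPM. Jund and Cebpb were not called.

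Promoters of these lists were searched for the TEAD core GGAATG, through which YAP acts, and for the CArG box, through which serum response factor acts, on both strands. Entries were found for 11 of 17 and 22 of 24 genes. GGAATG was found in 7 of 12 promoters of the YAP, TGF-beta and serum list, beside 14.7% of all promoters, and in 8 of 25 of the contractile list. The CArG box was in 3 of 25 promoters of the contractile list, beside 1.63% of all. It was also in 4 of 16 promoters of the AP-1 and immediate early list, all of 1 gene, Egr2. Of the neural crest and glia markers given below, 2 of 8 promoters held it, both of Elavl4. Matches are shown in capitals, first GGAATG in the 3 members of the YAP, TGF-beta and serum list with the largest fold changes among those with a match, and then the CArG box in the 3 contractile genes that held it.
Ankrd1, chr19:36119995-36120094, minus strand: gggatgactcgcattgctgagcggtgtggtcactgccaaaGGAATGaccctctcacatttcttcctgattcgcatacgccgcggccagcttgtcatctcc
Axl, chr7:25788884-25788983, minus strand: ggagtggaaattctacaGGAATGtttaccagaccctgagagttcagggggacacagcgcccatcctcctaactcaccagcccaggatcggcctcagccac
Ccn1, chr3:145650036-145650135, minus strand: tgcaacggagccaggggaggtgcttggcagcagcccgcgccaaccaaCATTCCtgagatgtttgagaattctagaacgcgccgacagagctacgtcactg
Myl9, chr2:156775258-156775357, plus strand: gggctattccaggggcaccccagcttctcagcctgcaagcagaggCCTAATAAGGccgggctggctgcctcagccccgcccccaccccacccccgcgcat
Cnn2, chr10:79988499-79988598, plus strand: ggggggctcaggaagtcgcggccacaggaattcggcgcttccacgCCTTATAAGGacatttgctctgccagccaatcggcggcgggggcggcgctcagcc
Vcl, chr14:20929148-20929247, plus strand: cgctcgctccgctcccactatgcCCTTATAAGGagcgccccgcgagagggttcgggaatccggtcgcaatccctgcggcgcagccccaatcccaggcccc
Myl9, a myosin light chain, had 768 and 757 CPM in MEFs against 0.295 and 0.578 CPM, and Vcl, a focal adhesion protein, 1109 and 1022 CPM against 161 and 151 CPM. Axl, a receptor kinase, had 961 and 897 CPM against 3.02 and 1.23 CPM.

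Genes of epithelial contact were higher in naive ES cells for 16 of the 20 tested, all 16 beyond 2-fold, and 3 were called higher in MEFs. The median log2 fold change was 6.44, or 5.78 with the 4 genes without MEF reads at their limit. Cdh1, E-cadherin, on which ES colonies depend for adhesion, had 1894 and 932 CPM in naive ES cells and 0.141 and 0.036 CPM in MEFs (13.86 ± 0.68). Epcam had 90.7 and 55.7 CPM against 0.0705 and 0.180 CPM (9.13 ± 0.47). The tight junction claudins Cldn4 and Cldn6 had no MEF read and were at least 670-fold and 282-fold higher. Cldn4 had 49.3 and 22.6 CPM and Cldn6 19.4 and 10.8 CPM in naive ES cells. For all 4 genes the first naive library was the higher of the pair.

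The epithelial list was not uniform. Krt19, a keratin of simple epithelia, had 16.8 and 13.9 CPM in MEFs and 0.516 and 0.145 CPM in naive ES cells (-5.52 ± 0.45). The desmosome plaque genes Pkp1 and Pkp2 were also higher in MEFs, and Krt18 was not called. Of 19 mesenchymal adhesion genes, 18 were called higher in MEFs. Cdh2, N-cadherin, had 168 and 156 CPM there and 1.48 and 3.33 CPM in naive ES cells (-6.07 ± 0.32). Vcam1, an immunoglobulin adhesion receptor, had 128 and 118 CPM in MEFs and no naive read. Cd44, the hyaluronan receptor, had 492 and 462 CPM against 1 read. Eng, a TGF-beta co-receptor, was called higher in naive ES cells (0.90 ± 0.11), and that call was lost once GC content and length were taken into account.

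The E-box CACCTG, which Snail and Zeb proteins bind in epithelial promoters, was in 12 of 15 promoters of the epithelial list (13 of 20 genes had an entry) and in 20.2% of all promoters, on either strand. In the mesenchymal adhesion list, it was in 4 of 10. It was also in 8 of 20 promoters of the pluripotency factors and in 6 of 10 of the trophoblast markers given below. Promoters of the epithelial genes with the largest fold changes and a match are shown, with each match in capitals. Cldn4 has a match on each side of its start.
Cldn4, chr5:134946896-134946995, minus strand: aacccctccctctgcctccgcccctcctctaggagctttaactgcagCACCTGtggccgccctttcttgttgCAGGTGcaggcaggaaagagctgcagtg
Cldn6, chr17:23679225-23679324, plus strand: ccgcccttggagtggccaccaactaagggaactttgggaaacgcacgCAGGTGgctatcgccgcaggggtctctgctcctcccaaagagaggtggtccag
Epcam, chr17:87635745-87635844, plus strand: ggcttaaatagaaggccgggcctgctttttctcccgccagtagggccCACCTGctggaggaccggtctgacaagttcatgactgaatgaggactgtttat
Zeb2 and Snai2, given above with the mesenchymal factors, were among the genes higher in MEFs, and the relation between their levels and these letters was not tested.

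Signalling genes went in both directions. Of 38 growth factors and receptors, 8 were called higher in naive ES cells, 25 higher in MEFs and 5 not called. In all, 86.8% were called, beside 71.8% of all tested genes. Nodal, a TGF-beta family ligand of the early embryo, had 152 and 160 CPM in naive ES cells and no MEF read, and was at least 2925-fold higher. Its antagonist Lefty2 had 43.1 and 17.6 CPM against 3 MEF reads. Kit, the stem cell factor receptor, had 1179 and 663 CPM against 0.0353 and 0.252 CPM (12.60 ± 0.61), while its ligand Kitl was the reverse, at 0.221 and 0.723 CPM against 6.87 and 6.97 CPM (-3.85 ± 0.49).

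Hgf, Csf1 and Fgf7, 3 secreted factors, were among the ligands higher in MEFs. Hgf had 16.0 and 18.4 CPM in MEFs and no naive read, so it was at least 157-fold lower. Csf1, the macrophage growth factor, had 328 and 306 CPM against 0.516 and 0.361 CPM (-9.48 ± 0.19), and Fgf7 was at -8.55 ± 0.30. Among receptors, Pdgfra, Pdgfrb and Egfr were called higher in MEFs. Fgfr1 was not called, at 214 and 117 CPM against 222 and 206 CPM. Lifr, which receives the LIF in the ES medium, had 23.0 and 20.4 CPM against 12.7 and 12.2 CPM (0.80 ± 0.16), whereas its partner Il6st was higher in MEFs (-1.96 ± 0.12).

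**Figure D3:**
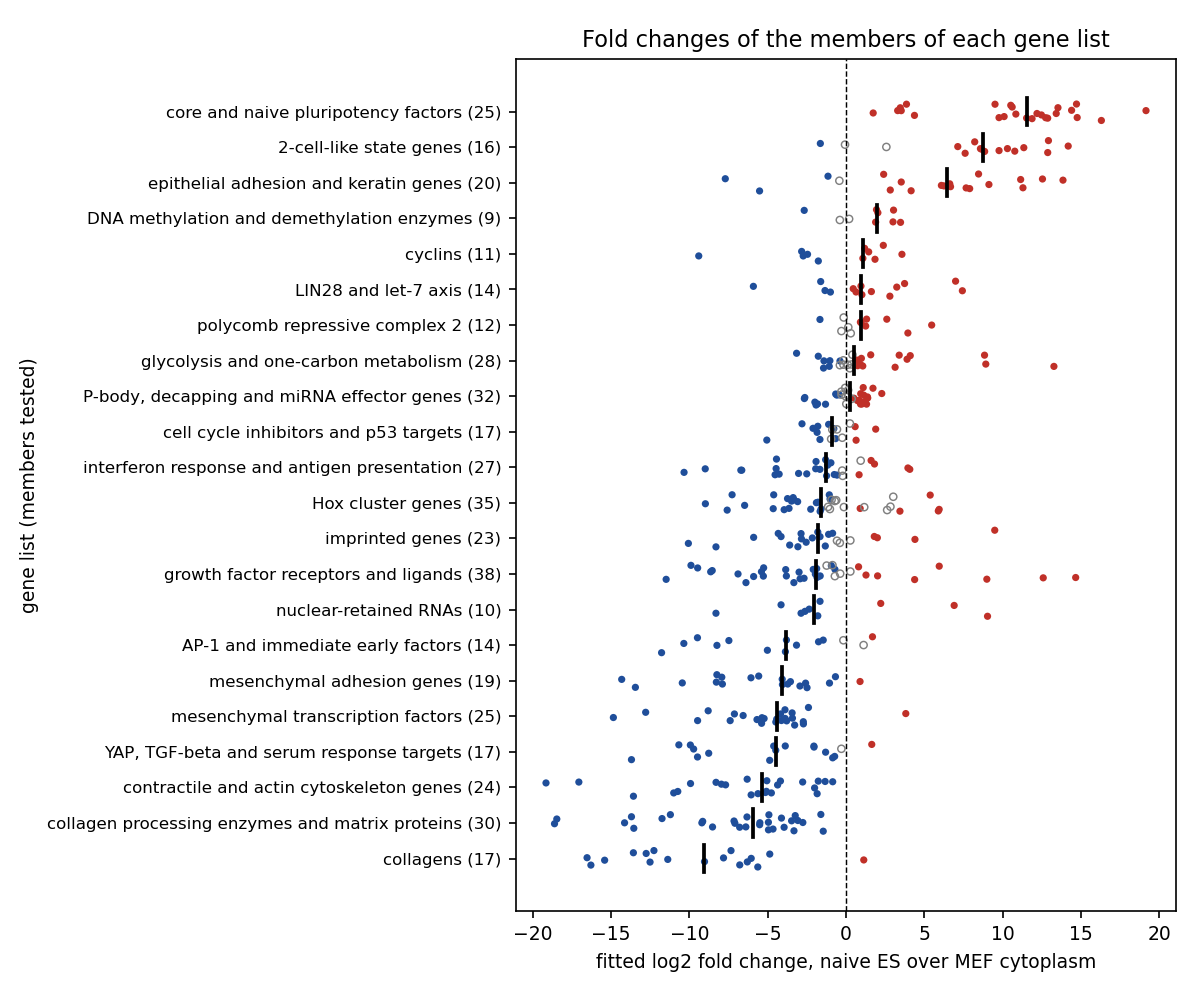
Fitted log2 fold change of each member of 22 gene lists, with red points called higher in naive ES cells, blue points called higher in MEFs, open points not called and black bars at list medians; the dashed line is the median of all tested genes and the vertical position within a list is arbitrary. Medians run from -9.04 for collagens to 11.54 for pluripotency factors, and members without a read in a group are drawn at fitted values that are not bounds.

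Imprinted genes, which are expressed from a single parental allele and often control fetal growth, were mostly lower in naive ES cells. Of 23 tested, 16 were called higher in MEFs and 4 higher in naive ES cells. In all, 87.0% were called, beside 71.8% of all tested genes. H19, a noncoding RNA of the maternal allele, had 46.2 and 45.1 CPM in MEFs and 1 read in naive ES cells. Igf2, its paternally expressed neighbour and a fetal growth factor, had 24.3 and 24.4 CPM against 0.590 and 0.217 CPM (-5.90 ± 0.36). Phlda2, a placental growth restrictor, was the reverse, with 46.0 and 14.2 CPM in naive ES cells and 2 reads in MEFs. Plagl1 and Snrpn were also higher in naive ES cells (2.0 ± 0.20 and 1.81 ± 0.17). Since no source states that the counting used strand, the antisense pair Airn and Igf2r and the overlapping transcripts Meg3, Rian and Mirg are uncertain.

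Hox genes, which give cells their position along the body axis, had low levels throughout. Of 39 genes, 35 were tested, with 20 called higher in MEFs, 5 higher in naive ES cells and 10 not called. The 71.4% called was close to the 71.8% of all tested genes. Hoxc8 had 23.0 and 21.6 CPM in MEFs and 3 reads in naive ES cells, Hoxc6 had 15.6 and 17.9 CPM against 0.148 and 0.217 CPM, and Hoxb7 had 18.3 and 17.9 CPM against 0.664 and 0.795 CPM. Some genes at the 5′ end of the clusters had the reverse order. Hoxb13 had 10.3 and 3.18 CPM in naive ES cells and 0.106 and 0.108 CPM in MEFs (5.90 ± 0.82), Hoxc13 was at 5.38 ± 0.86 and Hoxd9 at 3.45 ± 0.45.

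**Figure D4:**
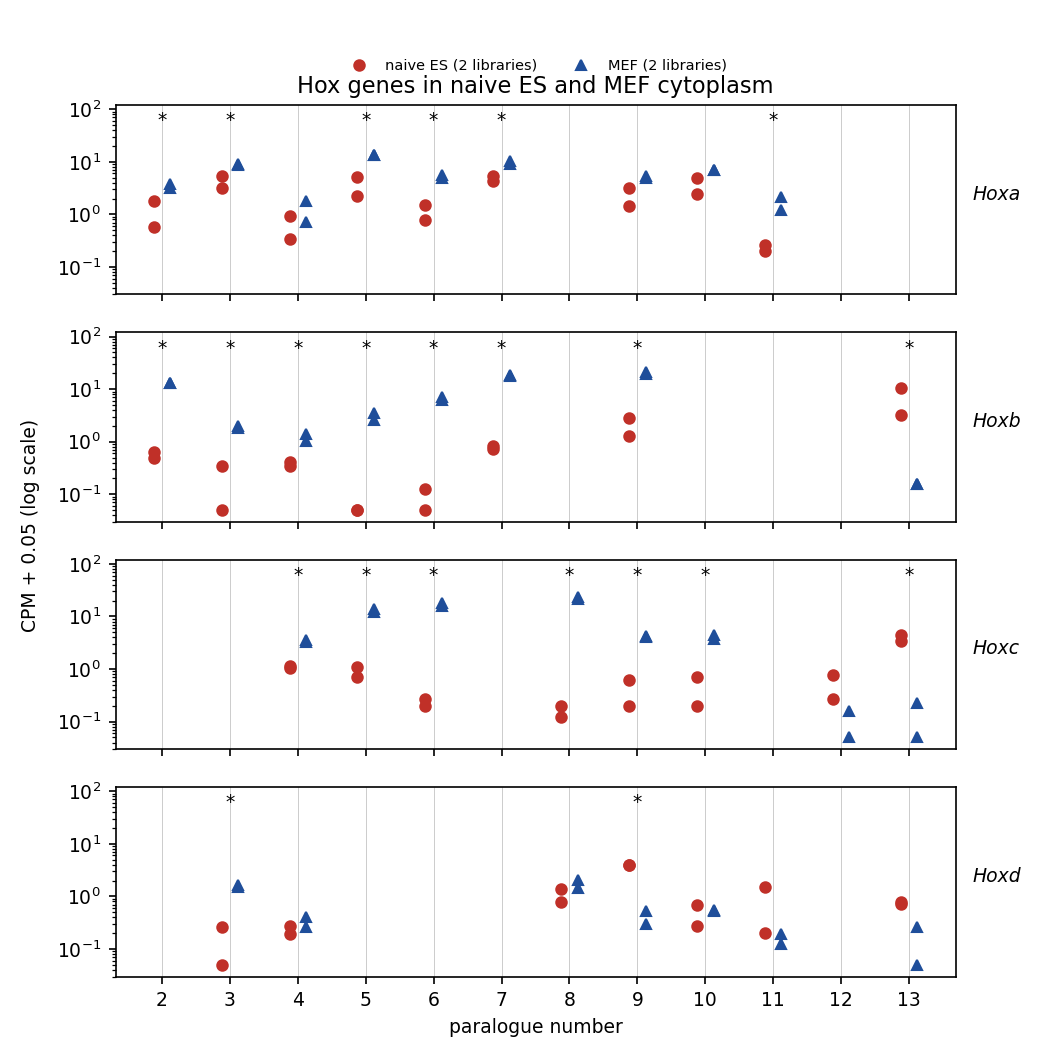
Level of each tested Hox gene from the second paralogue group on, by cluster and paralogue number, as CPM + 0.05 on a log scale, with naive ES libraries as red circles and MEF libraries as blue triangles; asterisks mark called genes. Tested paralogues 5 to 8 of the Hoxb and Hoxc clusters lie lower in naive ES cells, while Hoxb13 and Hoxc13 lie higher there. Hoxb8 was under the read minimum and is not drawn.

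Cyclins were divided between the cell types. Of 11 cyclins, 6 were called higher in naive ES cells and 5 higher in MEFs, 100% beside 71.8% of all tested genes. Ccnd2, a D-type cyclin of the G1 phase, had 1136 and 1148 CPM in MEFs and 0.369 and 2.96 CPM in naive ES cells (-9.41 ± 0.65), while Ccnd3 was higher in naive ES cells (1.45 ± 0.10). The mitotic cyclin Ccnb1 had 606 and 602 CPM in naive ES cells against 114 and 117 CPM in MEFs (2.38 ± 0.10), and Ccnf was at 3.57 ± 0.13. Of 17 cell cycle inhibitors and p53 targets, 9 were called higher in MEFs, 3 higher in naive ES cells and 5 not called, and the 70.6% called was close to that of all tested genes. Cdkn2b had 131 and 127 CPM there against 3.47 and 4.27 CPM, and Cdkn1a, which encodes p21, had 491 and 496 CPM against 160 and 114 CPM (-1.85 ± 0.19). Cdkn2a, the p16 and p19 locus that limits fibroblast growth in culture, was low in both, at 1.70 and 1.23 CPM against 2.68 and 2.70 CPM, and was not called (-0.88 ± 0.35). It passed the threshold without the first naive library and with the GC and length correction, at -1.08 and -2.01. Trp53 itself was higher in naive ES cells, at 376 and 423 CPM against 106 and 108 CPM (1.90 ± 0.11).

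Chromatin regulators differed in part. Of 9 enzymes of DNA methylation and demethylation, 6 were called higher in naive ES cells and 1 higher in MEFs, and the 77.8% called was near the share of all tested genes. Tet1, a methylcytosine dioxygenase, had 227 and 281 CPM against 23.6 and 21.8 CPM (3.48 ± 0.15), whereas Tet3 was higher in MEFs (-2.67 ± 0.18). Uhrf1, which guides maintenance methylation, was at 3.04 ± 0.19. Dnmt3b had 34.0 and 62.2 CPM against 7.26 and 4.75 CPM (3.0 ± 0.38). Dnmt3l had only 2.66 and 6.29 CPM in naive ES cells, and its call was lost without either MEF replicate and after the GC and length correction. Among 12 genes of Polycomb repressive complex 2, which methylates histone H3, 7 were called higher in naive ES cells, 1 higher in MEFs and 4 not called, and the 66.7% called lay below the 71.8% of all tested genes. Epop had 228 and 208 CPM against 4.76 and 5.03 CPM (5.47 ± 0.13) and Jarid2 was at 3.95 ± 0.18. The core subunits Eed, Suz12 and Ezh2 had log2 fold changes of 0.97 to 1.32, and Phf1, an accessory subunit, was the member higher in MEFs (-1.66 ± 0.20).

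The LIN28 and let-7 genes did not follow a simple order. Lin28a, which blocks let-7 maturation, had just 1.84 and 0.217 CPM in naive ES cells and no MEF read. Its call rested on 28 reads and was lost without either MEF replicate or with no filter on low counts. Mycn, a let-7 target, had 90.1 and 75.6 CPM against 0.494 and 0.791 CPM (7.0 ± 0.25), while Hmga2, another let-7 target, had 129 and 131 CPM in MEFs against 0.885 and 3.40 CPM (-5.92 ± 0.46). In all, 10 of 14 were called higher in naive ES cells and 4 higher in MEFs, 100% beside 71.8% of all tested genes.

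P-body and miRNA effector genes, the machinery that the study manipulates, were divided, with 15 of 32 called higher in naive ES cells, 9 higher in MEFs and a median of 0.25. The 75.0% called was near the 71.8% of all tested genes, and the 34.4% called beyond 2-fold lay below the 45.2% of all. Ddx6, the helicase that P-bodies need, had 140 and 131 CPM in MEFs and 17.0 and 26.8 CPM in naive ES cells (-2.63 ± 0.23). Tnrc6b and Tnrc6a, scaffolds of the miRNA complex, were also higher in MEFs. Lsm4, a subunit of the decapping activator ring, had 345 and 225 CPM against 54.6 and 62.3 CPM (2.29 ± 0.23), with Lsm3 and Lsm2 in the same direction. Lsm14a had 67.9 and 70.9 CPM against 111 and 108 CPM (-0.66 ± 0.10), and reads of the gene and of the GFP-LSM14A transgene cannot be told apart. Ago2 was not called, at 63.3 and 77.7 CPM against 86.6 and 86.7 CPM. Its log2 fold change of -0.30 ± 0.13 passed the threshold without the second naive library, where it was -0.43, and turned to 0.20 after the GC and length correction.

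Interferon and antigen presentation genes were called higher in MEFs for 19 of 27 and higher in naive ES cells for 5. In all, 88.9% were called, beside 71.8% of all tested genes. B2m, the light chain of MHC class I, had 348 and 353 CPM in MEFs against 19.5 and 12.3 CPM in naive ES cells (-4.46 ± 0.24). Ifit1 had no naive read. Ifitm1, a membrane protein that restricts viral entry, was the reverse, with 112 and 109 CPM in naive ES cells and 7.54 and 6.69 CPM in MEFs (3.96 ± 0.13), and Oas1a was at 4.07 ± 0.24. Genes of the 2-cell-like state, a rare state in ES cultures that resembles the early embryo, had 16 of 18 members tested. Of these 16, 10 passed the read minimum through naive reads alone, and no count by direction is given. Eif1a was called higher in MEFs, at 397 and 437 CPM against 130 and 137 CPM (-1.64 ± 0.11), and Sp110 and Zfp809 were not called. With Eif1a included, the list summed to 404 and 781 CPM in naive ES cells and 444 and 486 CPM in MEFs. Zscan4c, Zscan4d and Zscan4f had 31.4 to 254 CPM in naive ES cells, with the second library higher than the first for each, and at most 1 read in MEFs. Zscan4, Tdpoz and Usp17l genes have near-identical copies that share reads, so the split among copies is uncertain.

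Hairpin genes of microRNAs gave few reads, since the libraries captured long RNA, so their counts are of primary transcripts and not of mature microRNA. Of 1180 microRNA hairpin genes in the table, 181 were tested, with 28 called higher in naive ES cells and 53 higher in MEFs. The 44.8% called lay below the 71.8% of all tested genes. Of those tested, 24 had no naive read and 6 no MEF read, so for them the read minimum fixed the direction. Members of the miR-290 cluster on chromosome 7, the most abundant microRNAs of ES cells, had reads in naive ES cells only. Mir295 had 16 and 12 reads, Mir293 had 16 and 13, Mir294 had 11 and 8 and Mir291b had 8 and 9, with none in MEFs. They were at least 11.6-fold (Mir291b) to 19.8-fold (Mir293) higher, counting the MEF group at 3 reads. In MEFs, Mir214 had 33 and 32 reads, Mir21a 19 and 13, Mir100 19 and 12 and Mir27b 11 and 18, with none in naive ES cells, and Mir24-1 had 43 and 43 reads against 1 and 2. These genes were chosen after their values were seen, and hairpins inside longer host genes share reads with them. An arm of each is shown from RefSeq, with the seed, bases 2 to 8, in capitals.
mmu-miR-294-3p, chr7:3220691-3220712, plus strand: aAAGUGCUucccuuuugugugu
mmu-miR-295-3p, chr7:3220815-3220837, plus strand: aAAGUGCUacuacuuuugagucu
mmu-miR-291b-3p, chr7:3219529-3219550, plus strand: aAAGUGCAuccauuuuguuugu
mmu-miR-293-3p, chr7:3220390-3220411, plus strand: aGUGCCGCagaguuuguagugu
mmu-miR-214-3p, chr1:162223438-162223459, plus strand: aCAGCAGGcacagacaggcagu
mmu-miR-21a-5p, chr11:86584120-86584141, minus strand: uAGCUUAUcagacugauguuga
mmu-miR-100-5p, chr9:41531437-41531458, plus strand: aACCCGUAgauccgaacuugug
mmu-miR-27b-3p, chr13:63300760-63300780, plus strand: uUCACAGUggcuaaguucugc
mmu-miR-24-3p, chr13:63301251-63301272, plus strand: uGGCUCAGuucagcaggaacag
The arms of miR-294 and miR-295 share a seed, from which those of miR-291b and miR-293 differ, while the 5 from MEF-enriched hairpins have different seeds. Host transcripts gave firmer counts. Mir100hg had 27.9 and 34.0 CPM in MEFs and no naive read, and Mir22hg had 33.1 and 32.2 CPM against 1.48 and 1.88 CPM (log2 fold change -4.28 ± 0.21).

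Nuclear-retained RNAs were looked at because nuclei may leak into the fraction. With no nuclear or whole-cell sample in the comparison, leakage and expression of these RNAs cannot be told apart. Malat1 had 146 and 218 CPM in naive ES cells and 903 and 955 CPM in MEFs (-2.35 ± 0.21), and Neat1 had 19.3 and 16.6 CPM against 109 and 112 CPM (-2.62 ± 0.13). Of 10 such RNAs, 7 were called higher in MEFs. The other 3, Snhg11, Tsix and Xist, were called higher in naive ES cells, each beyond 2-fold and from 71 to 86 naive reads, and Tsix and Xist overlap on opposite strands, so their split is uncertain. The part of carried-over nuclear RNA in other results was not tested.

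Markers of other cell types were mostly low, with exceptions on both sides. In MEFs, the muscle actin Acta1 had 134 and 136 CPM and the cartilage genes Col2a1 and Sox9 had 434 and 390 CPM and 48.6 and 47.6 CPM. The defining muscle factors Myod1 and Myf5 had 0 and 1 reads over the MEF libraries, and Acan, the cartilage proteoglycan, had 0.846 and 1.01 CPM. Summed muscle markers reached 214 and 208 CPM in MEFs and 58.1 and 62.9 CPM in naive ES cells, and 4 of 9 were called higher in naive ES cells and 3 higher in MEFs. Summed cartilage markers reached 488 and 444 CPM against 171 and 192 CPM, with 3 of 9 higher in MEFs and 4 higher in naive ES cells. In naive ES cells, the endothelial marker Pecam1 had 311 and 284 CPM and Vwf had 110 and 57.7 CPM, while Cdh5 had no read. Endothelial markers summed to 509 and 448 CPM against 45.3 and 45.9 CPM, with 7 of 10 higher in naive ES cells and 2 higher in MEFs. Leukocyte markers stayed at 24.6 and 49.5 CPM in naive ES cells and 9.52 and 8.92 CPM in MEFs, with 2 of 6 higher in naive ES cells and 3 higher in MEFs, and C1qa was without a read in all 4 libraries. Neural crest and glial markers summed to 198 and 189 CPM against 157 and 147 CPM, with 5 of 10 higher in naive ES cells and 2 higher in MEFs. Erythroid markers summed to 6.93 and 3.98 CPM against 0.423 and 0.467 CPM. Of the 5 tested, 3 passed the read minimum through naive reads alone, and no count by direction is given. Extraembryonic endoderm markers, with Sparc among them, summed to 886 and 922 CPM against 6548 and 6236 CPM, with 3 of 11 higher in naive ES cells and 5 higher in MEFs. Trophoblast markers summed to 197 and 117 CPM against 13.1 and 16.0 CPM, with 4 of 7 higher in naive ES cells and 1 higher in MEFs. Of these 7, 1 had no naive read and 2 had no MEF read, so for them the read minimum fixed the direction. Tfap2c, which ES cells and trophoblast share, had 159 and 99.2 CPM and no MEF read. Surface epithelium and lung markers had 2 of 12 members tested, and Krt5 had at most 1 read in a library. These counts leave out the 2 to 10 members of each marker list that were under the read minimum. The part of such cells in the differences above was not tested.

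Other cytoplasm groups of the series show where these genes lay in related states, on a scaling over 10 cytoplasm libraries and without tests. Zfp42 had 449 and 517 CPM in naive ES cells, 41.9 and 43.7 CPM in primed ES cells and 0.185 and 0 CPM in MEFs. Epcam had more in primed ES cells, at 730 and 674 CPM, than in naive ES cells, at 97.4 and 60.5 CPM. Lin28a likewise had 61.8 and 64.6 CPM in primed ES cells against 1.98 and 0.236 CPM in naive ES cells. In control MEFs at day 3 of reprogramming, Pou5f1 had 196 and 182 CPM and Cdh1 50.7 and 54.6 CPM, while Col1a1 stood at 879 and 911 CPM beside 14513 and 12650 CPM in the control MEFs of the comparison. The induced cassette carries Pou5f1 coding sequence, so those Pou5f1 reads do not separate the gene from the cassette. In the same day 3 libraries Nanog and Zfp42 each had 0.0758 and 0.585 CPM and Dppa5a had 0 and 0.117 CPM. Esrrb and Lin28a had no read there.

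Fold changes also moved with gene properties. Across 13680 genes with at least 1 CPM, the Spearman correlation of the fold change with GC content was 0.273 and with transcript length -0.167, both across genes, which are not independent replicates. The median log2 fold change ran from -1.13 in the decile of lowest GC content to 0.589 in the highest, and from 0.362 in the shortest to -0.732 in the longest. Within the naive ES pair, the difference of the first and second library correlated with GC content at 0.262, close to the value between cell types. After a correction for GC content and length, 9713 of the 11861 called genes with known GC content and length were called in the same direction, and 839 had the opposite sign, of which 282 were called. Of the 839, 725 had differed by 2-fold or less and 25 had been called beyond 2-fold, with a median absolute log2 fold change of 0.682 and a maximum of 1.54.

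**Figure D5:**
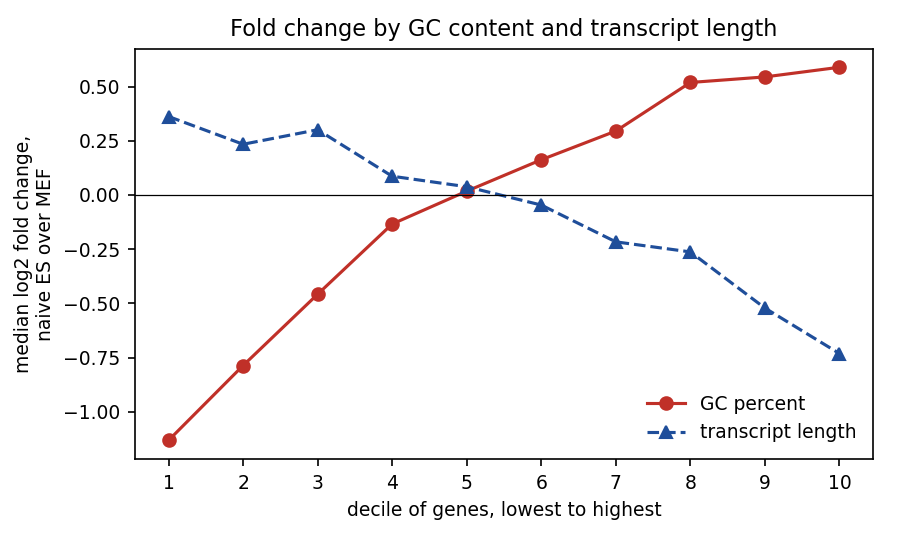
Median log2 fold change of naive ES over MEF cytoplasm in 10 bins of genes ordered by GC content (red circles) or by transcript length (blue triangles), over 13680 genes. The GC line climbs from -1.13 to 0.589 and the length line declines from 0.362 to -0.732.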

How the data were processed

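Libraries of naive ES and MEF cytoplasm (2 each) were grouped by sample title. The authors made SMART-Seq v4 libraries from cytoplasm pelleted before sorting, aligned read pairs to mm10 with HISAT2 and deposited featureCounts output on refGene exons. These deposited values are estimated counts, as 19.6% to 22.2% of them per library were not whole. How shared reads were divided and whether strand was used are not given in the sources used here. Every row had a gene name. The authors' tables of their own comparisons (fold changes and p-values) were not used.

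Values were rounded to whole reads. A minimum of 10 reads over the 4 libraries left 16871 of 25239 genes. They were scaled by TMM and tested with the two-sided quasi-likelihood F-test of edgeR 4.0.16 (R 4.3.3), with Benjamini-Hochberg adjustment over all of them, and glmTreat tested for a change beyond 2-fold. SEs come from the test statistic. For a group without reads, a lower bound was taken against 3 reads over the group, 0.109 CPM in naive ES cells and 0.0534 CPM in MEFs. For 1 to 3 reads an exact Poisson interval (95%) is given. Both cover counting error only. The script was tested on simulated data.

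Members, lists, motifs and tests were chosen with earlier results of these data known. Named genes were a fixed set, the 8 largest fold changes in each direction among genes beyond 2-fold with at least 10 CPM in the higher group, and the 3 largest per list and direction. Other list members were named for their role after their values were seen. The values of 1 list member are not reported here. The labels do not say that replicates were separate cultures, so p-values measure the spread between these libraries. Fewer cells and less RNA per cell cannot be told apart in bulk RNA. Coordinates, GC content and length are from GENCODE M21, found for 97.6% of tested genes. Alternatives were DESeq2 1.42.0, other scalings and filters, a replicate block, a fit of 10 cytoplasm libraries, a GC and length offset (mgcv 1.9.3) and leaving out each library. Plots used matplotlib 3.10.9 in Python 3.11.15.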

Additional observations from a re-analysis of the deposited data

How the results depend on the processing

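The number of called genes stayed within 1.5 times of 12119 under every alternative run, from 8995 (without the first MEF library) to 13166 (10 cytoplasm libraries in 1 fit). A group left with 1 sample was assumed to vary like the other group. DESeq2 called 11499 genes, DESeq2 size factors in edgeR 12120, filterByExpr 11647, no filter 11613 and the GC and length offset 11757. With library totals as the only scaling, the median of all genes shifted by 0.251 log2 units toward naive ES cells, and 6885 genes were called higher there against 5234 in MEFs, 56.8% of calls in place of 50.1%. Titles of both groups carry the numbers 1 and 2. Deviations of same-numbered libraries correlated at 0.0948 over 2 pairs, so the numbers were not taken to pair samples. With the replicate number as a block, 11673 genes were called.

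Of 146 named genes, Ago2 (0.197) and Cdkn2d (-0.347) turned sign under the GC and length offset. Of list medians, those of glycolysis and one-carbon metabolism (-0.0645) and skeletal muscle markers (-0.643) turned sign under that offset and that of microRNA hairpin genes (0.0441) with library totals. With a library left out, the skeletal muscle median ran from -0.725 to 2.04. Calls were lost in at least 1 alternative for 7 named genes, among them Bst2, Cdkn2d, Dnmt3l, Eng, Lin28a and Rbl1. The cause was not tested. Depth limits low genes most in naive ES cells, the shallower pair.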

Other observations

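Families that the lists did not hold were looked at after their values were seen, and are given as counts without a test of the group. Of 35 genes of germ cells and meiosis, 34 were tested. Of these, 10 passed the read minimum through naive reads alone, and no count by direction is given. Stra8, which licenses entry into meiosis, had 106 and 63.7 CPM in naive ES cells and no MEF read. Tex19.1, which protects germ cells from retrotransposons, had 134 and 164 CPM against 1 read. The synaptonemal complex genes Sycp1 and Sycp3 were low but called (log2 fold changes 2.84 ± 0.42 and 4.10 ± 0.29), whereas Sycp2, Meiob and Piwil4 were not. Tuba3a and Tuba3b are near-identical, so their split is uncertain. All 9 Mcm genes of replication licensing were higher in naive ES cells, by a median of 3.03, with Mcm2 at 1140 and 822 CPM against 95 and 93 CPM. The metallothioneins Mt1 and Mt2 were at 3.50 ± 0.27 and 6.01 ± 0.48.

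Of 38 chemokine genes, 16 passed the read minimum, and 11 of these had no naive read. The minimum was thus met through the MEF libraries alone for most of them, and no count by direction is given. Cxcl12, a homing signal for blood progenitors, had 261 and 246 CPM in MEFs and no naive read. Of 6 caveola genes, 2 passed the read minimum through MEF reads alone, and no count by direction is given. Among them, Cav1 had 834 and 808 CPM in MEFs and no naive read. Of 58 clustered protocadherins, which share exons within a cluster so that counts of single members are uncertain, 50 passed the read minimum, 25 of them through MEF reads alone, and no count by direction is given. Of 19 Wnt ligands, 14 passed the read minimum, 3 of them without a naive read and 1 without a MEF read. Wnt5a had 181 and 161 CPM in MEFs against 1 read, and Wnt3a had 18.7 and 3.47 CPM in naive ES cells and no MEF read.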
